A study of Mus musculus with 3 samples.

Results

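Fragments of glycine tRNA with the anticodon GCC, written Gly-GCC here, were measured in mouse epididymis, the duct in which sperm mature. The members are the 15 of 446 nuclear tRNA genes whose name in the deposited tables starts with tRNA-Gly-GCC. A tRNA reads a codon of the mRNA through its anticodon during translation. When nucleases such as angiogenin cut the anticodon loop, a 5′ and a 3′ fragment of the molecule are left. The 5′ fragments of Gly-GCC are among the most abundant small RNAs of mouse sperm and epididymis, and in mice they are known to repress transcripts linked to an endogenous retrovirus in embryonic cells. The enzyme ALKBH3 takes methyl groups off 1-methyladenosine and 3-methylcytidine in tRNA, and in human cancer cells tRNA that it has demethylated is known to be cut more readily.

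The groups were 1 wild-type library and 2 libraries of Alkbh3-/- mice, numbered as in the labels and called knockout 1 and knockout 2. The study asked how the small RNA of the epididymis differs between these genotypes, and its labels tag the libraries B6WT, 215KO and 217KO in this order. Beyond the B6 of the wild-type tag they name no strain, give no age or allele design and do not say whether the knockout libraries came from separate animals. The p-values rest on the spread between the knockout libraries, which may therefore be technical, and the wild type has no replicate. The test takes this spread from a fit over features ordered by abundance (the dispersion trend), so it is not that of Gly-GCC alone. Gly-GCC lies at the upper end of that trend, with 2864610 wild-type reads beside 467084 for the glutamate tRNA Glu-CTC, the next of the anticodons listed here. Among single genes, those of like abundance include the Gly-GCC copies themselves, whose counts are not independent. Small RNA of 15 to 50 nt was cut from a gel before the libraries were made. The tables used here hold tRNA genes, so neither the level of Alkbh3 nor markers of epididymal cell types were analysed here. In a bulk tissue, fewer cells of a type and less RNA per cell cannot be told apart. Means over the knockout libraries carry the SD with n = 2.

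Summed over the 5 classes of RNA that were counted (rRNA, tRNA, snoRNA, miRNA, mRNA), the wild-type library held 15107055 reads, knockout 1 held 15411457 and knockout 2 held 21169908. Levels are reads per 1000000 reads of this sum (RPM). The tRNA class made up 44.7% of the wild-type library, 36.5% of knockout 1 and 38.1% of knockout 2, while miRNA made up 15.1%, 24.8% and 30.7% in the same order. A change of 1 class moves the shares of all others.

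Gly-GCC was the most abundant of the 50 anticodons with reads, and its level was lower in both knockout libraries. The gene table assigned it 2864610 reads in the wild type, against 1972564 in knockout 1 and 2810824 in knockout 2, which is 189621, 127993 and 132775 RPM. Both knockout libraries lay well below the wild type and close to each other. The knockout mean was 130384 ± 3381 RPM, and the fall was 1.45-fold (log2 change -0.54, SE 0.08, adjusted p = 4.9e-07, edgeR's quasi-likelihood test with Benjamini-Hochberg adjustment). Of 45 anticodons tested, 8.89% were lower and 2.22% higher past the same threshold of 0.05. Within the gene table Gly-GCC held 71.4% of the wild-type reads (Wilson 95% interval 71.3 to 71.4%, counting error only), 59.1% in knockout 1 and 59.0% in knockout 2.

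The Gly-GCC share was thus lower among tRNA reads as well as among all reads. Shares of the gene table add up to a whole, so a rise of another tRNA lowers that of Gly-GCC. The glutamate tRNA Glu-CTC held 467084 of 4014098 reads in the wild type, 840178 of 3340218 in knockout 1 and 1217361 of 4766609 in knockout 2. How much of the drop in share goes with this rise was not tested. The median log2 change over all anticodons was -0.29, and relative to that median Gly-GCC changed by -0.25. The other scalings shifted the median by between -0.19 and 0.32 and left the relative change between -0.26 and -0.23. The adjusted p ranged from 7.9e-09 to 0.744 over 9 alternatives. The call was lost with the miRNA reads left out of the library size (log2 change -0.30), with DESeq2 (-0.21) and without a dispersion trend (-0.54), while TMM factors (-0.28) and column sums (-0.27) kept it at a smaller size. Without that trend the SE was 0.31.

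The other glycine tRNAs and the other anticodons known as sources of abundant small RNA in sperm and epididymis served as a comparison. Gly-CCC, the glycine tRNA nearest in these data, stood at 19754 RPM in the wild type, against 12647 in knockout 1 and 13115 in knockout 2 (log2 change -0.62, adjusted p = 0.066 by edgeR). Glu-CTC, a glutamate tRNA and the other prominent fragment source, was higher in both knockout libraries, at 30918, 54517 and 57504 RPM (log2 change 0.86, adjusted p = 7.4e-06 by edgeR). Its call was lost in 2 of 9 alternatives, without the miRNA reads and without a dispersion trend (adjusted p up to 0.104). Of the 10 listed anticodons Glu-CTC alone passed the test, and none was lower past the threshold. Asp-GTC and Val-AAC, which like Gly-GCC are methylated by DNMT2, had log2 changes of -0.09 and -0.29 with adjusted p of 0.878 and 0.677 (edgeR). The differences between these anticodons and Gly-GCC were not tested.

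All 15 Gly-GCC genes passed the filter on low counts, and their reads divide them into 10 abundant and 5 scarce copies. The division was drawn at 10000 RPM after the values had been seen. In tRNA gene names the first number stands for a mature sequence and the second for a gene copy, so Gly-GCC-2-1 to Gly-GCC-2-8 carry 1 mature sequence. Reads of such copies cannot be assigned to a single gene, and their calls are not independent. The abundant copies are those of groups 2, 3 and 4, and together they held 98.2% of the Gly-GCC reads in the wild type, against 97.9% in knockout 1 and 97.7% in knockout 2. All 10 were lower in both knockout libraries and passed the test, 0 of 15 were higher, and 5 were not called. Of 348 tRNA genes tested, 8.62% were lower and 3.16% higher past the threshold, and the median log2 change over them was -0.17.

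**Figure D1:**
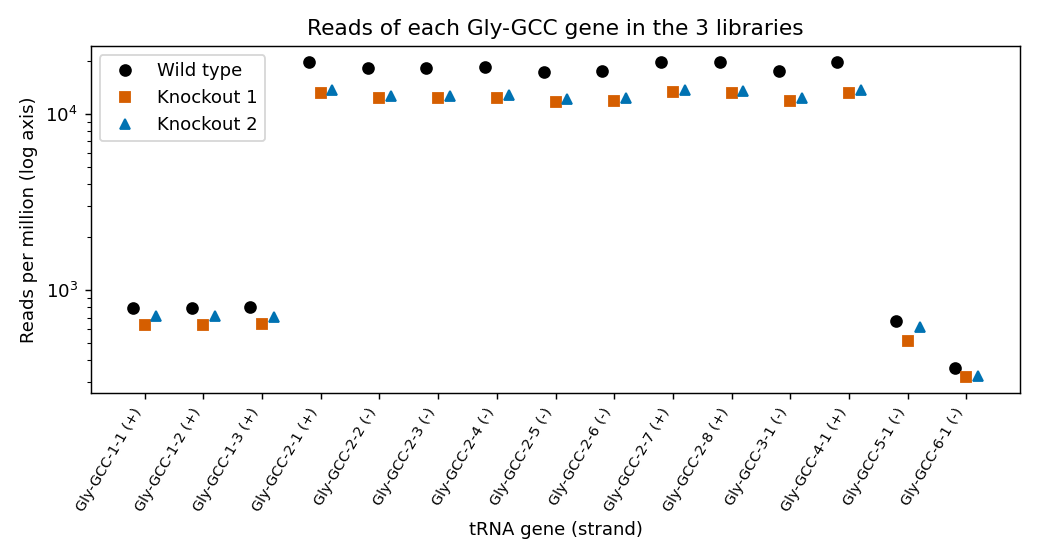
RPM of each of the 15 Gly-GCC genes on a log axis, with the gene's strand in brackets and 1 point per library. The 10 copies of groups 2, 3 and 4 lie between 17366 and 19822 RPM in the wild type and between 11750 and 13696 RPM in the knockouts. The other 5 lie at or below 801 RPM. Copies of 1 group are not independent.

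The genes lie on 8 chromosomes (coordinates of build mm10), 7 on the plus and 8 on the minus strand. They are 71 nt long except Gly-GCC-6-1, which is 72 nt. The deposited start and end were those of a RefSeq tRNA gene in 14 of 15, Gly-GCC-6-1 being the exception. In GENCODE 9 lie in no other gene. The remaining 6 lie in introns, of 4930555B11Rik (Gly-GCC-2-2), Trim2 (Gly-GCC-2-3), Vac14 (Gly-GCC-2-4 and Gly-GCC-2-5), Clec18a (Gly-GCC-4-1) and Nlrp4a (Gly-GCC-6-1). Trim2 is the only one of these host genes on the strand of its tRNA.

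Gly-GCC-2-7 on chromosome 13 (21710580 to 21710650, plus strand, in no other gene) had the most reads. It stood at 19822 RPM in the wild type, against 13261 in knockout 1 and 13679 in knockout 2. Both knockout libraries were lower (log2 change -0.56, SE 0.11, adjusted p = 2.3e-05 by edgeR). Gly-GCC-2-5 on chromosome 8 (110631246 to 110631316, minus strand, in a Vac14 intron) had the fewest reads of its group. Its levels were 17366, 11750 and 12206 RPM, again with both knockout libraries below the wild type (log2 change -0.54, SE 0.11, adjusted p = 5.4e-05 by edgeR).

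Groups 3 and 4 have 1 gene each, which behaved like group 2. Gly-GCC-3-1 on chromosome 1 (74816747 to 74816817, minus strand, in no other gene) stood at 17579, 11857 and 12338 RPM (log2 change -0.54, adjusted p = 5.0e-05 by edgeR). Gly-GCC-4-1 on chromosome 8 (111062561 to 111062631, plus strand, in a Clec18a intron on the other strand) stood at 19757, 13229 and 13696 RPM (log2 change -0.55, adjusted p = 2.3e-05 by edgeR). Over the 10 abundant copies the fold lay between 1.45 and 1.47. Each of these calls was lost with TMM factors, without the miRNA reads, with DESeq2 and without a dispersion trend, where the adjusted p reached 0.963. The direction was kept in all of them.

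The 5 scarce copies did not pass the test, and none had a change in either direction that stood out from the spread. Gly-GCC-1-1, Gly-GCC-1-2 and Gly-GCC-1-3 lie near each other on chromosome 1, on the plus strand at 171066631 to 171066701, 171074302 to 171074372 and 171081876 to 171081946. Gly-GCC-1-3 had the most reads of them, at 801 RPM in the wild type, against 645 in knockout 1 and 703 in knockout 2. Gly-GCC-1-1 had the fewest, at 792, 632 and 715 RPM, and Gly-GCC-1-2 stood at 794, 632 and 714 RPM. Both knockout libraries were below the wild type in each, with log2 changes between -0.25 and -0.23 and adjusted p of 0.879 to 0.885 (edgeR).

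Gly-GCC-5-1 on chromosome 4 (133114496 to 133114566, minus strand, in no other gene) stood at 670, 517 and 622 RPM (log2 change -0.23, SE 0.34, adjusted p = 0.889 by edgeR). Gly-GCC-6-1 on chromosome 7 (26460817 to 26460888, minus strand, in a Nlrp4a intron on the other strand) was the lowest, at 363, 321 and 328 RPM (log2 change -0.16, SE 0.39, adjusted p = 0.929 by edgeR). In both genes each knockout library lay below the wild type. All 5 turned to a positive log2 change under TMM factors and column sums, so no direction is given for them. Summed, the scarce copies stood at 3419, 2747 and 3083 RPM. Whether scarce and abundant copies differ in their change was not tested.

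Strand went with the level of the abundant copies. The 4 on the plus strand had 19623 to 19822 RPM in the wild type and the 6 on the minus strand 17366 to 18388 RPM, with no overlap. The ratio of the strand means was 1.10 in the wild type, against 1.09 in knockout 1 and 1.09 in knockout 2. A gap of the same sign is present in Glu-CTC-1, where 3 plus-strand copies had 4064 to 4115 RPM and 6 minus-strand copies 3059 to 3117 RPM in the wild type. The order of single copies within a name group therefore follows the strand, in all 3 libraries. This is a description and was not tested.

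The per-library tables, which also list read lengths, assigned more reads to these genes than the gene table did. They gave Gly-GCC 4694332 reads in the wild type, against 3191157 in knockout 1 and 4554840 in knockout 2, or 31.1%, 20.7% and 21.5% of all reads in each library. The change was of the same size as in the gene table (log2 change -0.56, SE 0.09, adjusted p = 1.3e-05 by edgeR, within the range over alternatives given above). The levels by length that follow are from these tables.

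Gly-GCC fragments were concentrated on 3 neighbouring lengths. Reads of 30 to 32 nt made up 93.5% of them in the wild type, against 88.4% in knockout 1 and 87.4% in knockout 2. Fragments left by a cut in the anticodon loop are known to have such lengths. The most frequent length was 31 nt in every library, with a share of 63.8% in the wild type (Wilson 95% interval 63.8 to 63.9%, counting error only), 55.5% in knockout 1 and 52.7% in knockout 2. The knockout mean share was lower by 9.68 percentage points (54.1 ± 1.95%, n = 2).

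**Figure D2:**
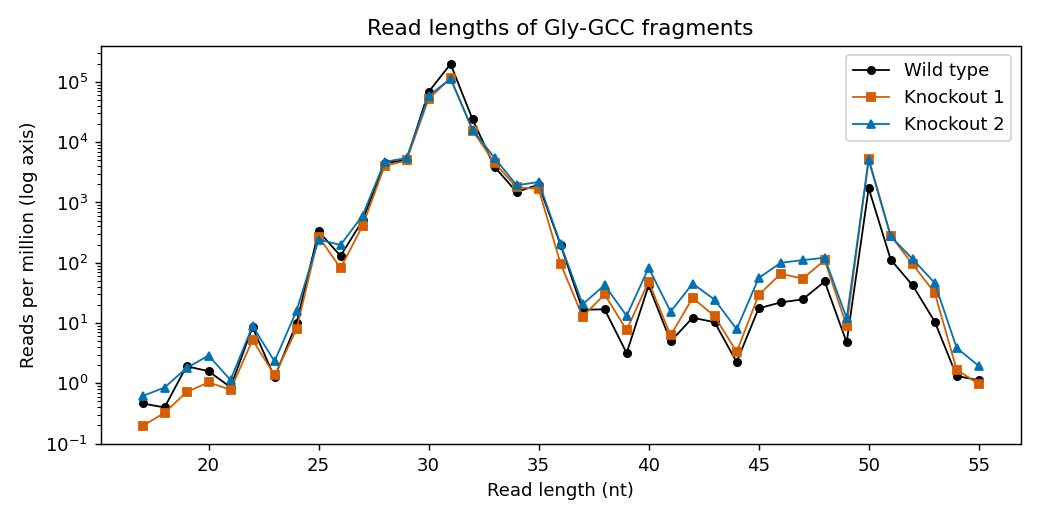
RPM of Gly-GCC fragments by read length in nt, on a log axis, 1 line per library. The wild type is highest at 30, 31 and 32 nt, and both knockouts are above it at 50 nt, where a second peak stands.

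The reads of 31 nt made up 84.4% of the fall in RPM from the wild type to the knockout mean. They stood at 198278 RPM in the wild type, against 114926 in knockout 1 and 113487 in knockout 2, with both knockout libraries far below the wild type. The per-library tables split each count into 2 read classes that the sources used here do not describe, and the tests by length were run within a class. In the first class the 31-nt reads changed by -0.80 (log2, SE 0.17, adjusted p = 0.00060 by edgeR), the only Gly-GCC length past the threshold in the lower direction. Of 834 fragment features tested over all anticodons, 0.959% were lower and 1.2% higher past it.

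The lengths beside 31 nt were also lower in both knockout libraries but did not pass the test. Reads of 30 nt stood at 68299, 52415 and 58366 RPM (log2 change -0.30, adjusted p = 0.569 by edgeR). Reads of 32 nt stood at 23911, 15641 and 16105 RPM (log2 change -0.59, adjusted p = 0.218 by edgeR). Shorter and longer neighbours gave another picture. Reads of 29 nt stood at 5091, 4980 and 5458 RPM (log2 change 0.04, adjusted p = 0.986 by edgeR), and the knockouts lay on either side of the wild type. Reads of 33 nt were at 3894, 4541 and 5474 RPM, higher in both knockouts but not past the test (log2 change 0.36, adjusted p = 0.661 by edgeR).

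Against this background a fragment of 50 nt was higher in the knockouts. It stood at 1725 RPM in the wild type, against 5359 in knockout 1 and 5043 in knockout 2. The knockouts did not overlap the wild type, and their mean of 5201 ± 223 RPM was 3.02 times its level (log2 change 1.59, SE 0.33, adjusted p = 0.00058 by edgeR). All these reads belong to the first class. Their share of Gly-GCC reads was 0.555% in the wild type (Wilson 95% interval 0.548 to 0.562%, counting error only), 2.59% in knockout 1 and 2.34% in knockout 2. Per 100 reads of 31 nt there were 0.870 of 50 nt in the wild type, against 4.66 in knockout 1 and 4.44 in knockout 2, a ratio that no scaling of the libraries can change.

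The peak is sharp on its short side. At 49 nt the level was 4.77, 8.95 and 12.05 RPM, and at 51 nt it was 113, 282 and 276 RPM. The length of 50 nt is also the upper edge of the range cut from the gel, and whether the cut differed between libraries was not tested. The call at 31 nt was lost in 4 of 9 alternatives, with TMM factors, without the miRNA reads, with DESeq2 and without a dispersion trend (adjusted p from 2.5e-10 to 0.680). The call at 50 nt was lost in 2 of 9, with TMM factors and without a dispersion trend (adjusted p from 4.0e-07 to 0.330, log2 change from 1.40 to 1.88).

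Lengths around 50 nt went the same way with fewer reads. Reads of 37 to 49 nt summed to 226 RPM in the wild type, against 416 in knockout 1 and 651 in knockout 2, and reads of 51 to 65 nt to 168, 412 and 443 RPM. The knockouts were above the wild type in both windows. Of the 19 first-class lengths of 37 nt or more that were tested, up to 55 nt, all 19 had a log2 change above 0 and 18 were higher in both knockout libraries, the exception being 55 nt. The window starts where the sign turns for the last time. First-class reads of 33 and 34 nt had log2 changes of 0.36 and 0.32, and those of 35 and 36 nt -0.03 and -0.40. That all 19 lie above 0 is thus set by the choice of window. The lengths of 1 library are not independent, so these counts are a description. Of the 19, 10 had an unadjusted p under 0.05 and 1, the 50-nt length, passed after adjustment (edgeR). The share of all features under that unadjusted limit is not given here, so whether 10 is many cannot be judged. The median log2 change of the 19 was 1.28. It was -0.35 over the 223 features of 37 nt or more of other anticodons, of which 74 were above 0, and -0.01 over all fragment features. The window was placed on the values of Gly-GCC and not on those of the others, so the gap between these medians is partly set by that choice.

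**Figure D3:**
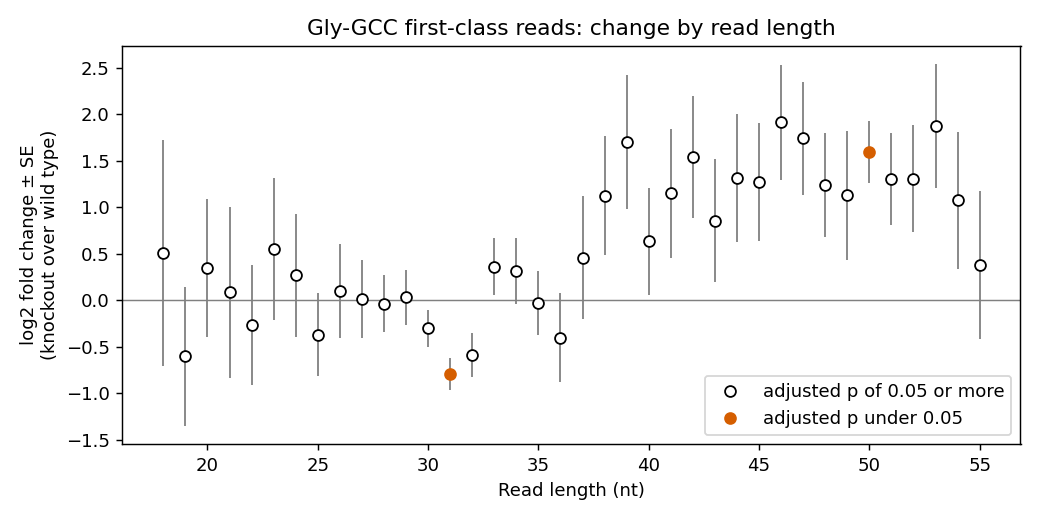
Log2 fold change of first-class Gly-GCC reads by read length in nt, knockout over wild type, with the standard error from edgeR as bars and lengths past the adjusted threshold of 0.05 filled. The 2 filled points are 31 nt (-0.80) and 50 nt (1.59). The lengths from 37 nt upward lie above 0, as do those of 33 and 34 nt, and those of 35 and 36 nt lie below it.

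In all, Gly-GCC had reads in 73 combinations of class and length, 49 in the first class and 24 in the second, between 16 and 65 nt. Of these 44 were tested and 29 were too sparse, holding 144 reads in all libraries together. Past the threshold were 1 lower and 1 higher, those of 31 and 50 nt. In the first class 2 lengths were lower and 10 higher at an unadjusted p under 0.05 (edgeR), again without the share of all features beside it.

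Reads of 50 nt came mainly from Gly-GCC. It held 81.2% of all tRNA reads of that length in the wild type, against 96.3% in knockout 1 and 94.8% in knockout 2. The others together stood at 399, 206 and 274 RPM, lower in both knockouts. Of the 7 other anticodons with at least 10 RPM of 50-nt reads in the wild type, 6 were lower in both knockout libraries. This limit was set on the wild-type level alone, so it leaves out anticodons that reach 10 RPM only in the knockouts. The count is therefore partly set by that choice. Lys-CTT, a lysine tRNA and the next most abundant, stood at 158, 69.0 and 98.5 RPM (log2 change -0.92, adjusted p = 0.433 by edgeR). Val-TAC, a valine tRNA, passed the test in the lower direction, at 10.1, 1.36 and 1.32 RPM (log2 change -2.90, adjusted p = 0.00060 by edgeR).

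The exception among the 7 was Gly-CCC, at 33.5 RPM in the wild type, against 39.6 in knockout 1 and 41.5 in knockout 2 (log2 change 0.28, adjusted p = 0.881 by edgeR). Among anticodons below 10 RPM in the wild type, Glu-TTC, a glutamate tRNA, was higher at 50 nt, at 1.99, 10.6 and 15.3 RPM (log2 change 2.69, adjusted p = 0.034 by edgeR). Glu-CTC was also higher at 50 nt in both knockouts, at 4.90, 10.6 and 17.01 RPM, but did not pass the test (log2 change 1.497, adjusted p = 0.336 by edgeR). Past the threshold in the higher direction at 50 nt were thus Gly-GCC and Glu-TTC. The Glu-TTC call was kept in 2 of 7 alternatives (adjusted p from 0.00050 to 0.145) and the Val-TAC call in 6 of 7, being lost with TMM factors. The differences between anticodons were not tested.

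**Figure D4:**
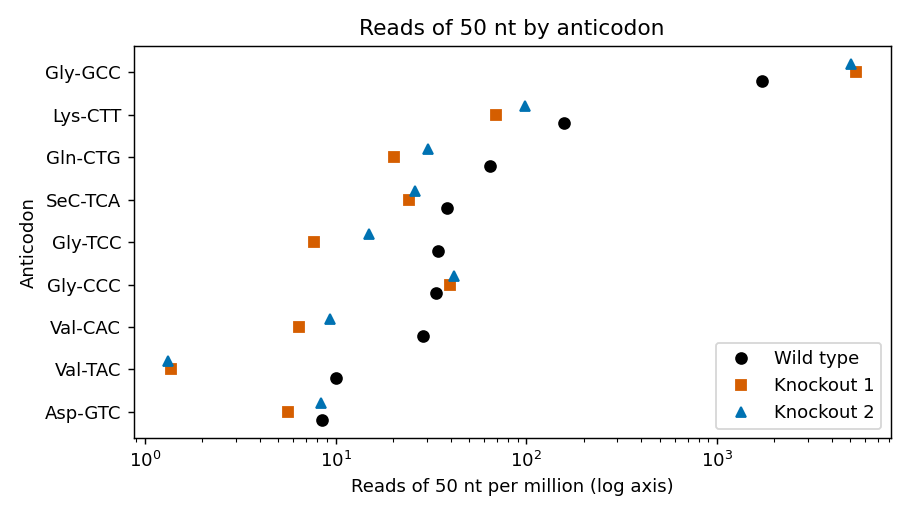
RPM of 50-nt reads on a log axis for the 9 anticodons with the most such reads in the wild type, 1 point per library. The choice by wild-type level leaves out Glu-CTC and Glu-TTC, which were higher in both knockouts. Gly-GCC rises from 1725 RPM to 5359 and 5043 RPM, while Lys-CTT, Gln-CTG, SeC-TCA, Gly-TCC, Val-CAC and Val-TAC lie lower in both knockouts.

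The copies of Gly-GCC did not share the 50-nt reads evenly. Each abundant copy had 160 to 193 RPM in the wild type, 496 to 587 in knockout 1 and 462 to 559 in knockout 2. The copies of group 1 had 1.99 to 2.65 RPM, 3.50 to 4.67 and 6.57 to 7.23 RPM, also higher in both knockouts. Gly-GCC-5-1 had 0, 0 and 1 reads of this length and Gly-GCC-6-1 had 0 in every library, where 3 reads are the limit that a count of 0 allows.

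The 31-nt reads of single copies fell by like factors within a group. In the abundant copies the ratio to the wild type was 0.575 to 0.581 in knockout 1 and 0.566 to 0.574 in knockout 2. In group 1 it was 0.722 to 0.741 and 0.767 to 0.792, nearer to 1 in both libraries. The most frequent length of these copies was 31 nt. Gly-GCC-5-1 and Gly-GCC-6-1 had another length profile.

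Gly-GCC-5-1 consisted mainly of 28-nt reads, with a share of 68.6% in the wild type, against 72.9% in knockout 1 and 73.9% in knockout 2. These reads stood at 790, 654 and 802 RPM, with the knockouts on either side of the wild type. Its 31-nt reads were at 165, 92.9 and 92.0 RPM, lower in both knockouts by a ratio of 0.561 and 0.556. Gly-GCC-6-1 consisted mainly of 29-nt reads, with shares of 59.9%, 67.1% and 64.0% and levels of 369, 368 and 358 RPM. Its 31-nt reads were at 136, 82.3 and 84.6 RPM, again lower in both knockouts. These single-copy lengths were not tested.

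**Figure D5:**
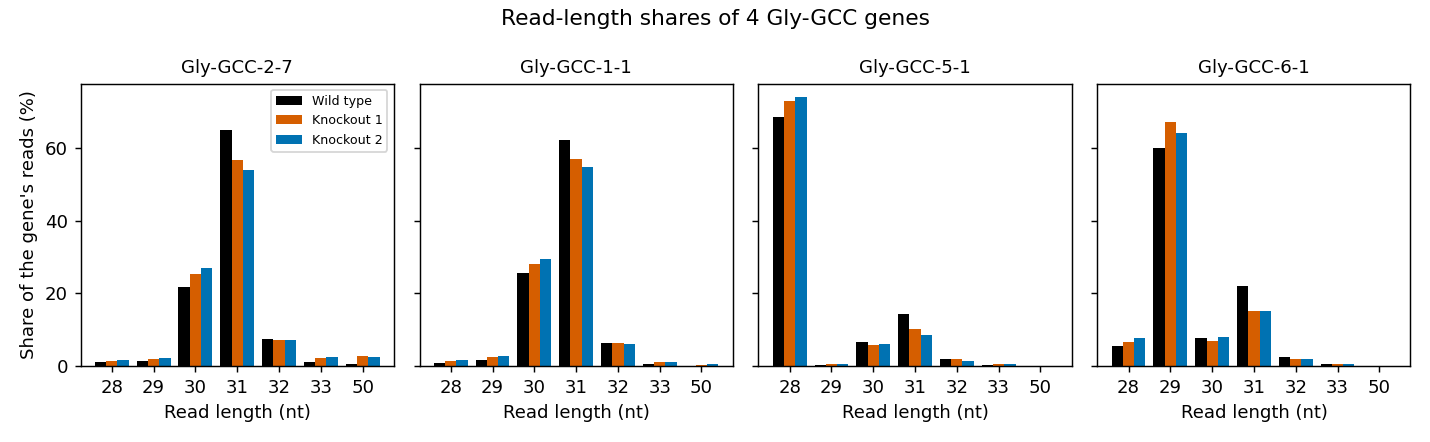
Share of each gene's reads (in %) at 7 read lengths for Gly-GCC-2-7, Gly-GCC-1-1, Gly-GCC-5-1 and Gly-GCC-6-1, 1 bar per library. The 31-nt share is lower in both knockouts in all 4 genes, and the main length is 28 nt in Gly-GCC-5-1 and 29 nt in Gly-GCC-6-1.

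Gly-CCC-5-1, a tRNA gene of the other glycine anticodon (chromosome 3, 96311254 to 96311324, plus strand), had nearly the counts of a plus-strand Gly-GCC copy up to 32 nt. At 31 nt it stood at 21632 RPM in the wild type, against 12468 in knockout 1 and 12262 in knockout 2, beside 21457, 12364 and 12157 RPM for Gly-GCC-2-7. At 32 nt its level was 0.993, 1.01 and 0.999 times the mean of the 4 abundant plus-strand Gly-GCC copies. From 33 nt on the genes parted. The ratio was 0.413, 0.374 and 0.297 at 33 nt and 0.0226, 0.0177 and 0.0104 at 34 nt, and at 50 nt Gly-CCC-5-1 had 0 reads in every library. The tables list no read sequences, so whether the same reads were counted for both genes was not tested. Gly-CCC-5-1 held 97.7% of the Gly-CCC reads of the gene table in the wild type, against 96.8% in knockout 1 and 95.8% in knockout 2. The Gly-CCC sums over all lengths in the comparison above are thus in the main those of this gene. The 50-nt reads of Gly-CCC given above are not, and belong to its other genes.

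By the length profile in the wild type, Gly-CCC was the anticodon most like Gly-GCC of 26 compared. Moving 2.30% of its reads between lengths would make the profiles equal, beside 15.6% for Pro-AGG and 26.7% for Pro-TGG, the next in order. By the pair of log2 ratios of each knockout library to the wild type, the nearest of 22 anticodons were Gly-CCC at a distance of 0.11, Lys-TTT at 0.25 and Gln-CTG at 0.28. Gly-CCC thus came first on both measures, and the reads of Gly-CCC-5-1 enter both.

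The second read class was nearly empty for Gly-GCC. It held 274 reads in the wild type, against 226 in knockout 1 and 272 in knockout 2, or 0.00584% of the wild-type reads (Wilson 95% interval 0.00519 to 0.00657%, counting error only), 0.00708% and 0.00597%. This was the lowest wild-type share of the 27 anticodons with at least 1000 reads, whose median was 2.13%. Gly-CCC had 0.205%, Glu-CTC 0.0457% and Gly-TCC 5.50%. Whatever the classes stand for, Gly-GCC fragments came almost wholly from 1 of them.

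Of the second-class lengths 6 were tested and none passed, in either direction, also at an unadjusted p under 0.05 (edgeR). The most frequent was 37 nt, at 6.75 RPM in the wild type, against 2.53 in knockout 1 and 3.59 in knockout 2 (log2 change -1.13, SE 0.62, adjusted p = 0.430 by edgeR). Both knockouts were lower, on 102, 39 and 76 reads. Reads of 33 nt were at 2.58, 3.24 and 3.12 RPM, and those of 35 nt at 2.45, 2.47 and 1.13 RPM. Reads of 34 nt stood at 2.12, 1.82 and 1.46 RPM and those of 32 nt at 1.19, 1.69 and 0.945 RPM. None of these differences was detected by the test. Among the genes, Gly-GCC-3-1 had 1, 0 and 2 second-class reads although its first-class reads were as many as those of the other abundant copies, which had 20 to 36 in the wild type.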

How the data were processed

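Small RNA of 3 epididymis libraries was analysed from read counts that the authors deposited without normalization: a count per RNA class, a count per tRNA gene, and per library a table with counts in 2 read classes. The deposited lists of read lengths, a unit recorded as other, pair each length with its count. Per the submitters' processing notes cutadapt was used and the build was mm10. The sources used here give no aligner and do not say how reads that match more than 1 copy were treated. Gene positions were compared with RefSeq (GRCm38.p6) and GENCODE.

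The gene table held 59.4%, 59.4% and 59.1% of the tRNA class reads and the per-library ones held 95.5%, 94.1% and 94.2%. Counts were summed per anticodon, and per anticodon, class and length. Each table was tested whole with edgeR 4.0.16 in R 4.3.3 (quasi-likelihood, two-sided, library size from the 5 classes, no composition factor, filterByExpr, Benjamini-Hochberg at 0.05), which leaves 1 residual degree of freedom and assumes that the lone wild type varies like the knockouts. Standard errors are the log2 change divided by the root of F. The fits were run on simulated counts with log2 changes of 2 in either direction and the same dispersion for every feature. On average 87.8 to 93.2% of these changes were recovered, and 0.674 to 2.64% of the unchanged features were called. Such changes are larger than that of the Gly-GCC sum, so the simulation does not show how smaller ones fare. Alternatives were TMM factors, column sums, library sizes without miRNA or without Gly-GCC reads, DESeq2 1.42.0, other filters (none, or at least 50 reads in every library), no dispersion trend, the other table and each knockout library left out.

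Named by rule were, per name group, the genes with the most and fewest wild-type reads, genes not called, the 5 most abundant lengths per class, lengths past the threshold, the nearest anticodons and a fixed list of 10. Members and lists were chosen with earlier results of these data known. A planned comparison of gene sequences was not made, and sequences were not analysed here.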

Additional observations from a re-analysis of the deposited data

How the results depend on the processing

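The Gly-GCC sum kept its direction under all 9 alternatives with a test and lost its call without the miRNA reads in the library size (log2 change -0.30), with DESeq2 (-0.21) and without a dispersion trend (-0.54). With 1 knockout library left out it was -0.57 to -0.51, with no test. The count of lower Gly-GCC genes went from 10 to 0 with TMM factors (10 at an unadjusted p under 0.05), and to 0 without the miRNA reads, with DESeq2 and without a dispersion trend (0 unadjusted in each). Fragments called higher were 5 with column sums, 8 with DESeq2, and 0 with TMM factors and without a dispersion trend. Fragments called lower were 0 with TMM factors, 0 without the miRNA reads, 2 without the Gly-GCC reads, 0 with DESeq2 and 0 without a dispersion trend. The causes of these losses were not tested. Counts have no value with a library left out, since 1 library against 1 leaves no residual degree of freedom. The 31-nt share differed by -9.68 percentage points as reported, by -5.62 for 30 to 32 nt, by -11.1 to -8.31 with 1 knockout library left out, and by 0.888 in the second class alone, which holds few reads. The 50-nt share rose by 1.79 to 2.03 points with 1 library left out and by 0 in the second class alone, which has no such reads. Log2 changes of results that did not pass the test turned sign as follows. With TMM factors, column sums and the miRNA reads left out they became 0.0357, 0.0318 and 0.0067 for Gly-GCC-1-1, 0.0314, 0.0274 and 0.0023 for Gly-GCC-1-2, 0.0334, 0.0303 and 0.0079 for Gly-GCC-5-1, and 0.110, 0.105 and 0.0754 for Gly-GCC-6-1, which was 0.0425 with DESeq2. Gly-GCC-1-3 became 0.0217 and 0.0173 with TMM factors and column sums. First-class reads of 29 nt became -0.16 without the Gly-GCC reads in the library size. In the second class 32 nt became -0.0662 without them and -0.59 with both classes added, where 34 nt became 0.32 and 37 nt 0.0018. With 1 knockout library left out, 29 nt of the first class ranged from -0.0317 to 0.10, 32 nt of the second class from -0.33 to 0.50 and 35 nt from -1.11 to 0.0097. No paired analysis was possible because the wild type is 1 library with no replicate number. The single wild-type library limits every comparison.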
